A study of Mus musculus with 9 samples.

Results

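The urokinase system and the proteases and inhibitors that act at the macrophage surface were examined by RiboSeq, which counts ribosome-protected mRNA fragments. The 8 genes were chosen by name, as Plau, Plaur, Serpinb2, Mmp12, Mmp14, Timp1, Timp2 and Sdc4. Of these, 7 have a line among the 16921 genes of the table and 6 reached a mean fitted value of 10 over the libraries, the limit used for all genes (10202 genes were kept). Serpinb2 lay below it, and Mmp14 was not analysed here. All libraries came from bone marrow-derived macrophages (BMDMs) that lack TTP (tristetraprolin, the product of Zfp36) and were immortalized with hcmyc and hRasG12V. They were transduced with doxycycline-inducible vectors for GFP, GFP-TTP or GFP-TTP-AA, a TTP with the substitutions S52A and S178A at the sites that the kinase MK2 phosphorylates. Every culture received doxycycline (1 μg/ml) for 6 h in all and LPS (1 μg/ml) for 1 h. Each condition had 3 libraries, described as biological replicates. Each vector was in a cell line of its own, so that construct and cell line cannot be told apart, and there were no libraries without LPS or without doxycycline.

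Urokinase (uPA, from Plau) is a secreted serine protease that binds its receptor uPAR (from Plaur) on the cell surface and cleaves plasminogen to plasmin there. Plasmin degrades fibrin and matrix proteins and can activate pro-forms of matrix metalloproteinases (MMPs), which the tissue inhibitors of metalloproteinases (TIMPs) block, while Serpinb2 encodes PAI-2, an inhibitor of urokinase. Macrophages use this system to migrate through tissue and to remodel it, and several of its genes are induced by LPS. TTP binds AU-rich elements in the 3′UTRs of mRNAs and directs these mRNAs to decay, and phosphorylation by MK2 weakens this activity.

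The deposited values come out of the authors' statistical model and are not observed counts. In each gene they consist of a term for the condition and a term for the replicate number. These are multiplied by a scale factor of the library that all genes share. Once the values are divided by this factor, the log2 differences between conditions are the same in replicates 1, 2 and 3 by construction. The residual spread between replicates is not in these values. No standard error or p-value could therefore be computed, and whether a difference exceeds the spread between replicates was not tested. Overlap between conditions, as given below, only sets the difference of levels against the range between replicate numbers. It does not show that libraries agree, and the share of all kept genes without overlap was not computed. The SD over genes of the log2 differences between conditions was 0.037 to 0.040 in the 3 comparisons for genes with a mean scaled value below 1 and 0.15 to 0.20 for those from 1 to 10. It was widest, at 0.30 to 0.41, from 10 to 100, the range that holds Timp1, and was 0.24 to 0.32 from 100 to 1000 and 0.23 to 0.32 above. Summed over genes, the libraries held fitted values of 2570292 to 12804501, with replicate 2 the lowest in each condition, and the number of reads behind them is not known. In this bulk measurement fewer cells that translate a gene, less mRNA per cell and fewer ribosomes per mRNA cannot be told apart.

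As TTP acts through AU-rich elements, the annotated 3′UTRs of the 7 measured genes were searched on the transcript strand for the pentamer ATTTA and for TATTTAT, each copy of which also counts as a pentamer. Among 9986 kept genes with an annotated 3′UTR, 68.2% held the pentamer and 28.8% the heptamer. Plau, on the plus strand of chromosome 14 (GRCm38) from 20836660 to 20843385, has a 3′UTR of 935 nt with 2 pentamers and 1 heptamer. Of 1593 kept genes with a 3′UTR within 25% of this length, 71.9% held the pentamer and 22.6% the heptamer. At least 2 pentamers were found in 44.5% of them. Plaur on chromosome 7 (24462484 to 24475968, plus strand) has 2 pentamers and 0 heptamers in 496 nt, and 50.3% of the genes with a 3′UTR of similar length held the pentamer. Serpinb2 on chromosome 1 (107511423 to 107535478, plus strand) has 6 pentamers and 1 heptamer in 657 nt. At least 6 pentamers were found in 1.34% of the 1420 genes with a 3′UTR of similar length. Mmp12 on chromosome 9 (7344381 to 7369499, plus strand) has 6 pentamers and 3 heptamers in a 3′UTR of 2134 nt. At similar length 91.8% of genes held the pentamer, 23.2% at least 6 copies of it, and 39.7% the heptamer. Sdc4 on chromosome 2 (164424247 to 164443887, minus strand) has 1 pentamer, which lies in 1 heptamer, in 1839 nt. Of genes of similar length 37.5% held the heptamer and 89.1% at least 1 pentamer, with a median of 3 pentamers. No match was found in the 103 nt of Timp1 on chromosome X (20870166 to 20874735, plus strand) or in the 2630 nt of Timp2 on chromosome 11 (118301069 to 118355740, minus strand). The pentamer was present in 19.1% of genes with a 3′UTR as short as that of Timp1 and in 94.4% of those with one as long as that of Timp2.

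To show what these motifs look like, 1 site of 30 bases is given for each gene with a match, the one with the most heptamers and then the most pentamers, 5′ to 3′ on the transcript strand with the pentamers in capitals. The site of Plau lies at chr14:20843317-20843346 on the plus strand, that of Plaur at chr7:24475677-24475706 on the plus strand, that of Serpinb2 at chr1:107525197-107525226 on the plus strand, that of Mmp12 at chr9:7360346-7360375 on the plus strand and that of Sdc4 at chr2:164425189-164425218 on the minus strand. A match of letters is a description of the annotated sequence, and binding was not measured in these libraries.
Plau: tctgctatttttATTTAtatctatttttat
Plaur: gttattgctctaATTTAttatataaatata
Serpinb2: ttttacagtgttATTTAttgtttatataat
Mmp12: tattATTTAtattaaagtgttATTTAgctg
Sdc4: ttgttttttactATTTAtagcttcagacag

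**Figure D1:**
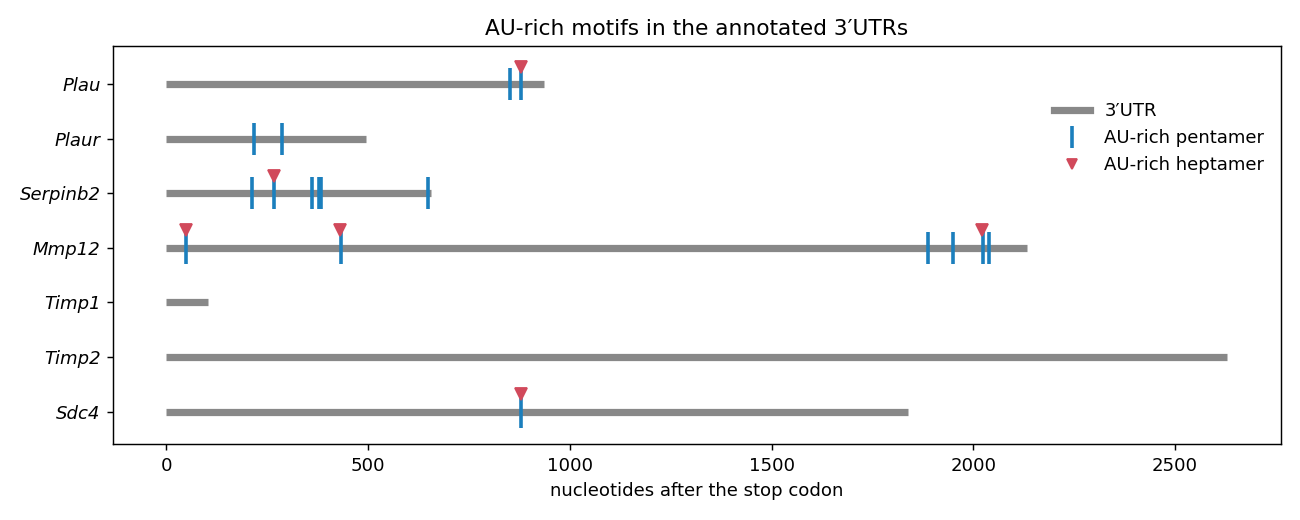
Annotated 3′UTRs of the 7 measured genes, drawn to scale in nucleotides after the stop codon, with each AU-rich pentamer as a blue bar and each AU-rich heptamer as a red triangle. Serpinb2 and Mmp12 hold 6 pentamers each, and the 3′UTRs of Timp1 and Timp2 hold 0.

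Zfp36, which encodes the TTP protein that the cells lack and the TTP constructs supply, was used to check the labels of the conditions. Its scaled values (fitted value divided by the scale factor of the library) were 440.1 to 507.2 for GFP, 888.3 to 1024 for GFP-TTP and 1443 to 1663 for GFP-TTP-AA. Both TTP constructs lay above GFP. Each library carries the fitted term of its labelled condition, so a single mislabelled library could not be seen in these values. Which TTP construct is which cannot be read from this gene either. Footprints were assigned to Zfp36 in the GFP libraries of TTP-deficient cells too, and which part of the gene they cover is not given by these values. GFP-TTP and GFP-TTP-AA also differed in the level of Zfp36, and the part of this in the results below was not tested. Of 8 macrophage markers 7 had a mean fitted value of at least 100, with Mertk at 5.54. Of the 21 markers of fibroblasts, neutrophils, T cells, B cells, dendritic cells and mast cells, 11 had a line in the table and S100a8 alone reached a mean of 10, with levels of 27.2, 25.8 and 55.1 with GFP, GFP-TTP and GFP-TTP-AA. The 3 fibroblast or stromal markers with a line in the table summed to a level of 1.94 to 2.08 in the 3 conditions, with Col1a1 at 0.73 to 0.76. The macrophage markers summed to 94353 for GFP, 74406 for GFP-TTP and 105116 for GFP-TTP-AA. Most of this sum was Lyz2 (lysozyme), and without it the other 7 markers summed to 29879, 28110 and 34659. Itgam and Cd14 were higher in GFP-TTP than in GFP (levels of 3208 and 2988, and of 10356 and 9604), opposite to the sum. All the other macrophage markers were lower in GFP-TTP, so the shift was not confined to Lyz2. Adgre1 had a GFP level of 3688.5 and a GFP-TTP level of 2305.1, while its GFP-TTP-AA level was 5271.7. For Fcgr1 the GFP level was 130.3, the GFP-TTP level 67.5 and the GFP-TTP-AA level 109.0. The part of these shifts in the results below was not tested.

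Per kilobase of coding sequence, the members covered a wide range of levels. Taken over the 3 conditions, Sdc4, the heparan sulphate proteoglycan syndecan-4, was the highest with a scaled value of 4264 per kb. It was followed by Plau with 2087, Timp2 with 1327, Plaur with 917.5 and Mmp12 with 571.5 per kb. Timp1 had 21.6 and Serpinb2 1.96 per kb. The 9 libraries of Plau (1559 to 3063 per kb) overlapped those of Timp2 (1084 to 1649 per kb), and those of Timp2 overlapped those of Plaur (665.7 to 1177 per kb). The other neighbours in this order did not overlap, with Sdc4 at 3277 to 5808 per kb and Mmp12 at 467.1 to 646.5 per kb.

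Plau had its highest footprint level in GFP-TTP macrophages. Its scaled values in replicates 1, 2 and 3 were 2101, 2699 and 2472 for GFP, 3097, 3978 and 3644 for GFP-TTP and 2025, 2601 and 2383 for GFP-TTP-AA. Every GFP-TTP library was above every library of the other conditions, whose values overlapped. The level was 2411 for GFP, 3554 for GFP-TTP and 2324 for GFP-TTP-AA. On the log2 scale GFP-TTP differed from GFP by 0.56 (1.47-fold), GFP-TTP-AA from GFP-TTP by -0.61, and GFP-TTP-AA from GFP by -0.05. Of all kept genes 3.21% had a larger absolute difference in the first of these comparisons and 6.03% in the second.

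Plaur, which encodes the GPI-anchored receptor that holds urokinase at the membrane, had the same order of conditions with smaller differences. In replicates 1, 2 and 3 the scaled values were 786.7, 994.0 and 966.8 for GFP, 914.1, 1155 and 1123 for GFP-TTP and 653.1, 825.1 and 802.6 for GFP-TTP-AA. Every GFP-TTP-AA library lay below every GFP-TTP library, while GFP-only macrophages overlapped both. The log2 difference was 0.22 between GFP-TTP and GFP, -0.27 between GFP-TTP-AA and GFP, and -0.49 in GFP-TTP-AA against GFP-TTP. Among all kept genes 11.9% had a larger absolute difference in the last of these comparisons, and 32.7% in the first.

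Serpinb2 was close to the lower end of the table. Its fitted mean was 2.82, and the scaled values ranged from 2.35 to 2.60 over the 9 libraries with overlap between all conditions. The log2 differences were -0.04, -0.02 and 0.01 in GFP-TTP against GFP, GFP-TTP-AA against GFP and GFP-TTP-AA against GFP-TTP. Over all genes with a mean scaled value from 1 to 10, the SD of these differences was 0.15, 0.17 and 0.20, and no limit of detection was computed. Differences were narrower at such low levels than above 10, so these values do not show that Serpinb2 is unchanged.

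Mmp12 encodes macrophage elastase, a secreted MMP that cleaves elastin. Its scaled values in replicates 1, 2 and 3 were 739.7, 662.8 and 766.0 for GFP, 877.2, 786.0 and 908.4 for GFP-TTP and 885.8, 793.6 and 917.3 for GFP-TTP-AA. GFP-only libraries lay below those of both TTP constructs, which overlapped. In fitted values this only means differences wider than the range between replicate numbers. That range was 0.21 in Mmp12 on the log2 scale, below the median of 0.29 over all kept genes. Mmp12 differed from GFP-only macrophages by 0.25 with GFP-TTP and by 0.26 with GFP-TTP-AA on the log2 scale, and the constructs differed by 0.01. These comparisons share the GFP-only libraries. A larger absolute difference from GFP was seen in 27.0% of kept genes with GFP-TTP and in 27.7% with GFP-TTP-AA.

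Timp1, a secreted inhibitor of many MMPs, had the widest range between conditions of the members. Its scaled values in replicates 1, 2 and 3 were 7.83, 8.29 and 7.45 for GFP, 24.4, 25.9 and 23.3 for GFP-TTP and 12.2, 13.0 and 11.6 for GFP-TTP-AA. None of the 3 groups overlapped another, which in fitted values means differences wider than the range between replicate numbers. The log2 difference was 1.64 (3.12-fold) between GFP-TTP and GFP, 0.64 (1.56-fold) between GFP-TTP-AA and GFP, and -0.998 in GFP-TTP-AA against GFP-TTP. By absolute size Timp1 was at place 12 of the 10202 kept genes in the first comparison, at place 257 in the second and at place 161 in the third. Its footprint level was low, with fitted values between 5.27 and 47.7 per library before division by the scale factors. The mean fitted value of 17.1 over all libraries passed the limit of 10, while the level for GFP, the reference of the first 2 comparisons, was 7.85. With a pseudocount of 10 the difference from GFP was 0.95 for GFP-TTP and 0.32 for GFP-TTP-AA, which no longer passed 1.5-fold.

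The 3 kept genes whose 9 log2 values, centred on their mean, lay nearest to those of Timp1 were Fkbp9, Amz1 and Stac2. Their Euclidean distances were 0.60, 0.79 and 0.79, where the median of all kept genes was 2.11. The genes were picked by this distance, so small distances and differences like those of Timp1 follow from the choice. The 9 values of a gene are fitted and are not independent measurements. All 3 had a mean fitted value between 21.7 and 47.6. Between GFP-TTP and GFP they differed by 1.18, 1.98 and 1.14 on the log2 scale, in the same order.

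Timp2 encodes the inhibitor that also takes part in the activation of pro-MMP2 by the membrane protease MMP14. In replicates 1, 2 and 3 its scaled values were 862.5, 900.4 and 734.4 for GFP, 840.4, 877.3 and 715.6 for GFP-TTP and 1042, 1088 and 887.6 for GFP-TTP-AA. Every GFP-TTP-AA library was above every GFP-TTP library, and GFP-TTP-AA overlapped GFP-only macrophages. The log2 differences were -0.04 in GFP-TTP against GFP, 0.27 in GFP-TTP-AA against GFP and 0.31 in GFP-TTP-AA against GFP-TTP. The direction between the TTP constructs was thus opposite to that of Timp1. Of all kept genes 29.4% had a larger absolute difference between the constructs than Timp2.

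Sdc4, whose heparan sulphate chains bind growth factors and matrix proteins, varied with the replicate number and hardly with the condition. Its scaled values in replicates 1, 2 and 3 were 2046, 2420 and 3447 for GFP, 1947, 2302 and 3279 for GFP-TTP and 2048, 2422 and 3450 for GFP-TTP-AA. The groups overlapped throughout, and replicate 3 was the highest in each condition. The log2 differences between conditions were -0.07 in GFP-TTP against GFP, 0.00 in GFP-TTP-AA against GFP and 0.07 in GFP-TTP-AA against GFP-TTP. A larger range between conditions was seen in 94.4% of kept genes.

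**Figure D2:**
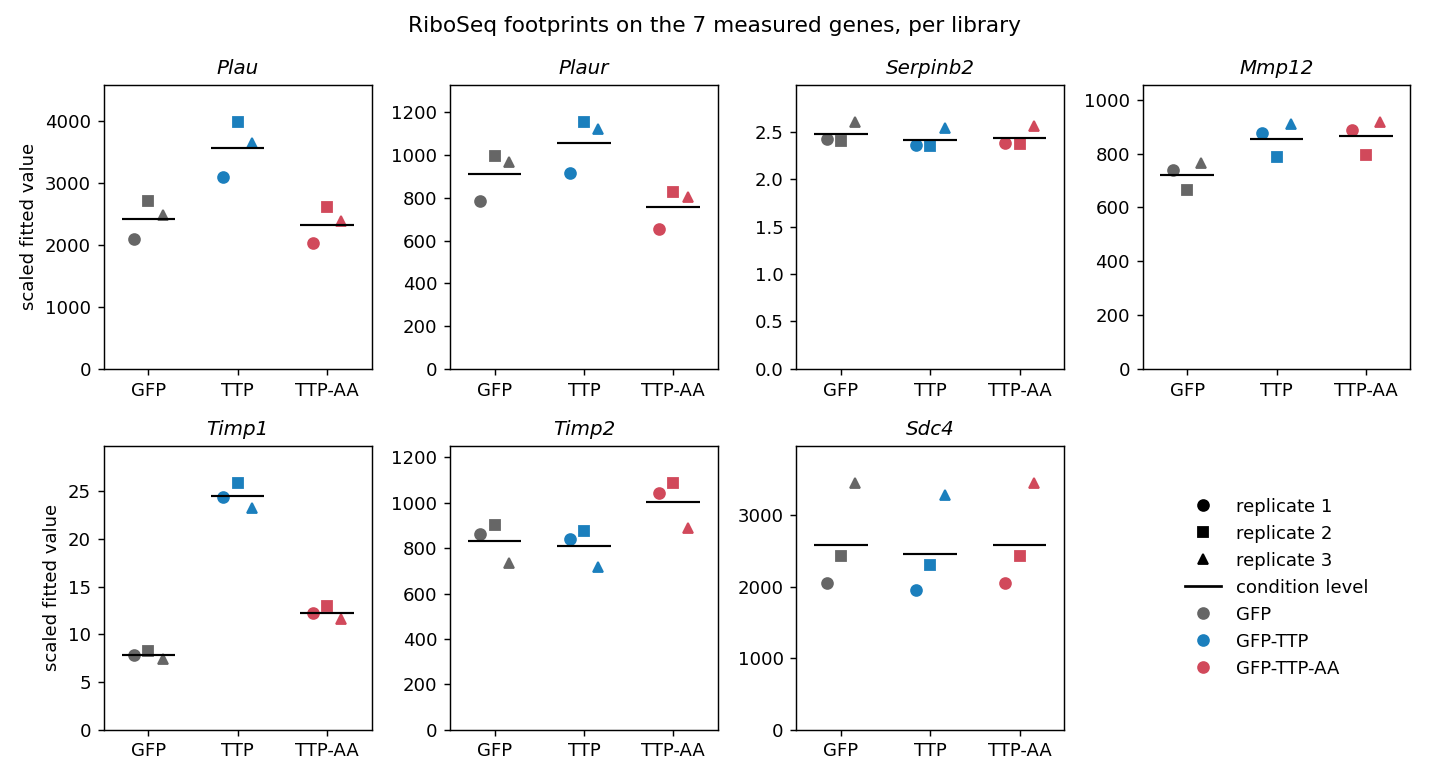
Scaled fitted value of each measured gene (vertical axis from 0, own scale per panel) in the 9 libraries, with colours for the condition, symbols for the replicate number and bars for the level, the geometric mean of 3 libraries. The spacing of the symbols repeats between conditions because the values are fitted, Timp1 separates the conditions, and Sdc4 separates replicate 3 from the others.

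The members were then set beside all kept genes, with 1.5-fold as the limit. As they were chosen with earlier results of these data known, their counts are a description. Between GFP-TTP and GFP, 1 of the 6 members kept was higher by at least this factor (Timp1) and 0 were lower, while 0.931% of all kept genes were higher and 1.86% lower. Plau lay just short of the limit with 1.47-fold. Between GFP-TTP-AA and GFP, Timp1 was again the 1 member past the limit, on the higher side, with 1.85% of all kept genes higher and 1.61% lower. Between GFP-TTP-AA and GFP-TTP, 2 members (Plau and Timp1) were lower and 0 higher, against 3.11% and 3.98% of all kept genes. In this comparison Plau lost its place past the limit when the median of its chromosome was subtracted, which moved its difference from -0.61 to -0.54. The median difference of the 6 members was 0.23, 0.13 and -0.24 in the 3 comparisons, in the same order, where the medians of all kept genes were 0.00, -0.02 and -0.02. The last 2 member medians depended on the filter: without it they were 0.0013 and 0.0133, and with a minimum of 50 they were 0.0013 and 0.0141. Each condition enters 2 of these comparisons.

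**Figure D3:**
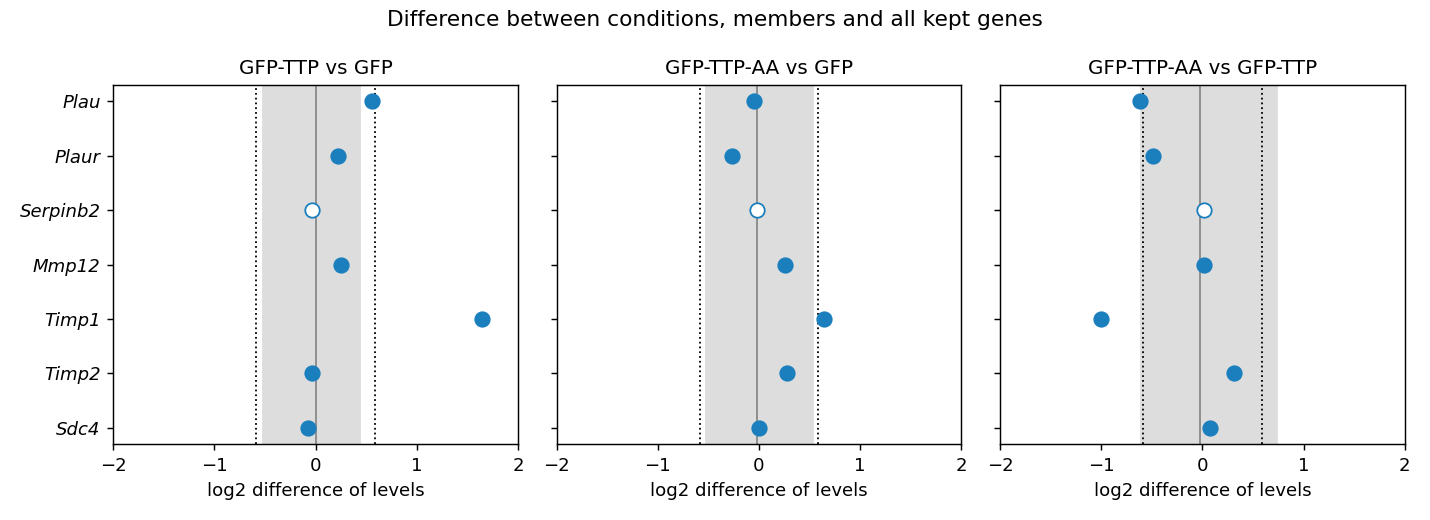
Log2 difference of levels between conditions for the measured genes (points, open for Serpinb2, which was below the limit of 10), with the range that holds the middle 95% of all kept genes in grey, their median as a line and 1.5-fold as dotted lines. Timp1 lies outside the grey range in all 3 panels, at 1.64, 0.64 and -0.998, and Plau in the panels that contain GFP-TTP.

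The term for the replicate number was compared with that for the condition in each member. The range between conditions (highest minus lowest level on the log2 scale) was 1.64 in Timp1, 0.61 in Plau, 0.49 in Plaur, 0.31 in Timp2, 0.26 in Mmp12 and 0.07 in Sdc4, with a median of 0.27 over all kept genes. The range between replicate numbers was 0.16 in Timp1, 0.36 in Plau, 0.34 in Plaur, 0.29 in Timp2, 0.21 in Mmp12 and 0.75 in Sdc4, with a median of 0.29. A larger range between replicate numbers than that of Sdc4 (1.68-fold) was found in 4.50% of kept genes. Replicate 3 was higher than the mean of the replicates by 0.42 in Sdc4, while it deviated by -0.18 in Timp2. Plau and Plaur were both lowest in replicate 1, by -0.20 and -0.21 from their means. The model behind the values had a term for the library date, and no dates were given in the labels, so that date and replicate number cannot be told apart.

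**Figure D4:**
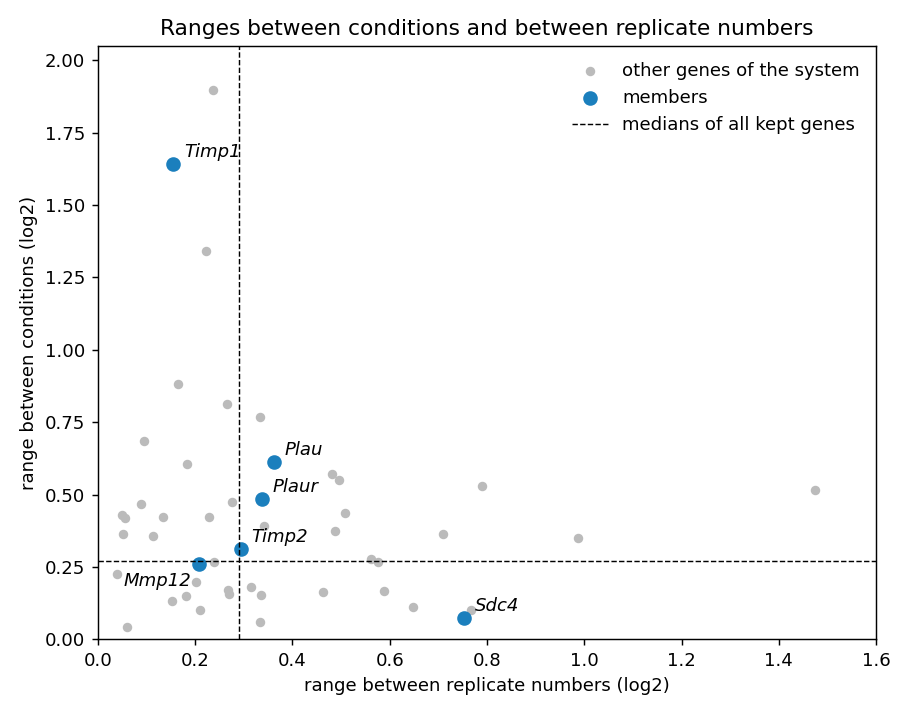
Range between conditions (vertical axis) against range between replicate numbers (horizontal axis), both in log2 units, for the 6 members kept (blue) and the 42 other genes of the system (grey), with the medians of all kept genes as dashed lines. Timp1 (1.64 and 0.16) and Sdc4 (0.07 and 0.75) lie at opposite ends among the members.

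Of the 80 other genes of the system that are reported, in 7 lists, 65 have a line in the table and 42 were kept. Between GFP-TTP and GFP, 0 of these 42 were at least 1.5-fold higher (beside 0.931% of all kept genes) and 5 were lower (11.9%, beside 1.86% of all kept genes). Between GFP-TTP-AA and GFP-TTP, 6 were higher (14.3%, beside 3.98% of all kept genes) and 1 was lower (2.38%, beside 3.11%). Between GFP-TTP-AA and GFP, 1 was higher (2.38%, beside 1.85% of all kept genes) and 0 were lower (beside 1.61%). The medians of the 42 genes were -0.07, 0.15 and 0.08 on the log2 scale in these comparisons as ordered here. The lists were chosen with results of these data known, so that these counts are a description.

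In the list for plasminogen activation, 9 of 17 genes were kept. Anxa2, a membrane-associated protein that with S100a10 binds plasminogen and its activators, differed by 0.61 between GFP-TTP-AA (level 7426) and GFP-TTP (level 4882). S100a10, like the genes of the next paragraph named after its values were seen, differed by 0.47 in the same comparison. Below the limit of 50 on which named genes rest, and named after their values were seen, Serpine2 (level 18.9 for GFP, 12.5 for GFP-TTP and 46.7 for GFP-TTP-AA) differed by 1.90 and F3 (tissue factor) by -0.77 between the constructs. Serpine2 also passed 1.5-fold against GFP, by -0.60 with GFP-TTP and by 1.30 with GFP-TTP-AA.

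Among receptors that clear or partner uPAR, 8 of 13 were kept and 0 passed 1.5-fold in any comparison. Lrp1, the endocytic receptor for complexes of urokinase and its inhibitors, differed by -0.35 between GFP-TTP-AA and GFP, and its range between replicate numbers was 0.99. Itga5 differed by 0.53 in the same comparison, in which the median of the 8 genes was -0.095. Igf2r differed by -0.44 between the constructs. The chains of the integrin Mac-1, Itgam and Itgb2, differed by 0.10 and -0.09 between GFP-TTP and GFP. Of the other clade B serpins 4 of 6 were kept, and Serpinb6b, named after its value was seen, was lower by at least 1.5-fold in GFP-TTP than in GFP (-0.69) and higher in GFP-TTP-AA than in GFP-TTP (0.60) at a mean fitted value of 18.7. Of the 21 genes in the list of other MMPs and their inhibitors 5 were kept, and 0 passed the limit. The genes kept were Mmp8, Mmp9, Mmp13, Mmp19 and Bsg, the last of which is neither an MMP nor an MMP inhibitor. Mmp9 (gelatinase B) differed by 0.37 and Mmp8 by 0.39 between the constructs. Mmp13 differed by 0.52 between GFP-TTP-AA and GFP and had a range between replicate numbers of 1.47. Of the 6 ADAM or ADAMTS proteases kept 0 passed 1.5-fold, with Adam17, the TNF-shedding protease, at 0.55 between GFP-TTP-AA and GFP.

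The matrix receptors and cathepsins held the other genes past the limit. Sdc3, a syndecan like Sdc4, had levels of 222.2 for GFP, 112.1 for GFP-TTP and 283.9 for GFP-TTP-AA. Its log2 difference was -0.99 between GFP-TTP and GFP and 1.34 in GFP-TTP-AA against GFP-TTP. Ctss, the macrophage cysteine protease cathepsin S, had levels of 2650, 1755 and 3235 in the same order, and Cstb, the inhibitor cystatin B, had 5127, 3088 and 5428. Ctss differed by -0.59 between GFP-TTP and GFP and by 0.88 between the constructs, and Cstb by -0.73 and 0.81. In these 3 genes GFP-TTP was the lowest condition, whereas in Plau, Plaur and Timp1 it was the highest.

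**Figure D5:**
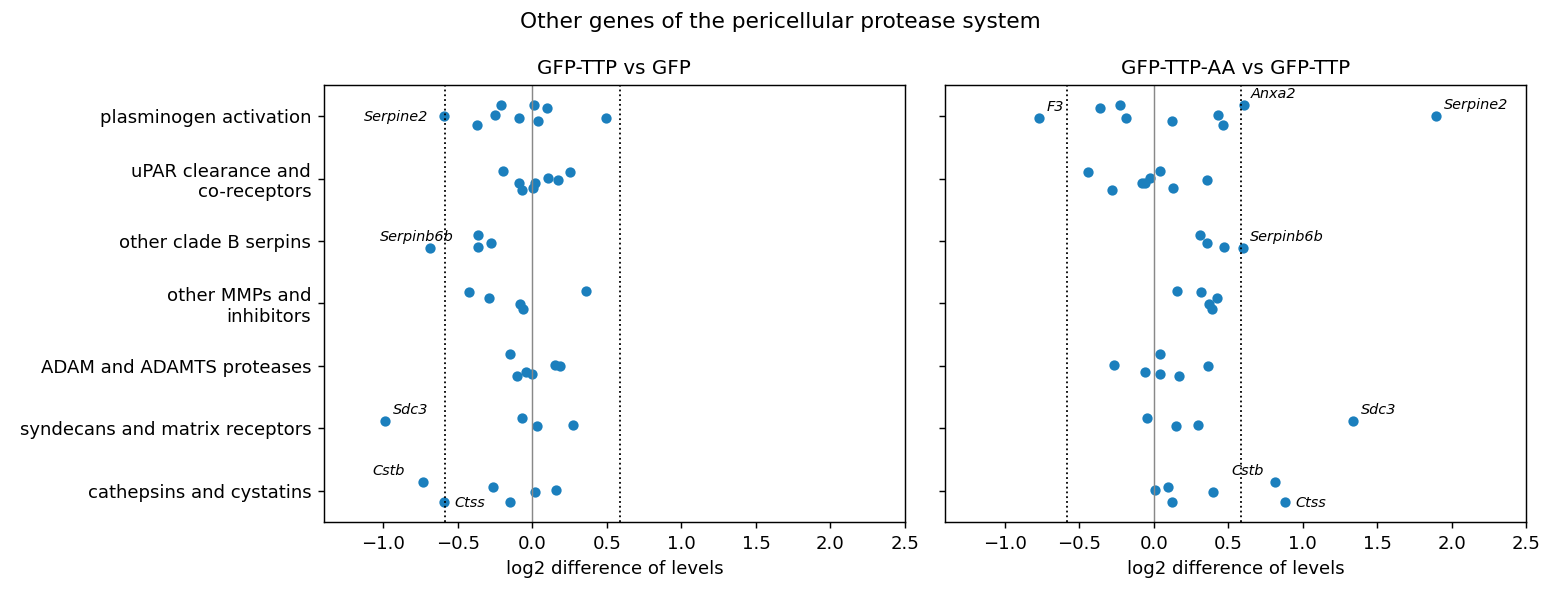
Log2 difference of levels for the 42 other genes kept, by list (rows, with points spread vertically for legibility), in GFP-TTP against GFP (left) and GFP-TTP-AA against GFP-TTP (right), with 1.5-fold as dotted lines and the genes past it named. Sdc3 lies at -0.99 on the left and 1.34 on the right.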

How the data were processed

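Ribosome profiling (RiboSeq) was analysed in 9 libraries, with conditions and replicate numbers taken from the sample titles. The authors' reads were trimmed with Trim Galore, mapped with TopHat2 (2.0.12 in the submitters' processing notes) to GRCm38 with up to 2 alignments per read, counted per gene with HTSeq and modelled with DESeq2 1.6.3, using library date and condition.

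The values used here are the deposited signal, one fitted value of this model per gene in every library. Each gene was given a condition term and a replicate term, and each library a term shared by all genes. A residual SD of 1.64e-15 was then left in the log2 values, whose own SD was 4.79. No replicate spread remained, so the limma test planned for values with such spread was not run. The authors' 3 comparison tables hold means over libraries, log2 fold changes, standard errors, Wald statistics and p-values. They were not used.

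The table had 16932 lines. After 11 repeated lines were left out, 16921 genes remained, 1 without a name. Library scale factors were medians over the 846 genes (5%) with the lowest means, 474 of which gave the same ratios within 1e-06 on the log2 scale. A scaled value is the fitted value divided by this factor, a level is the geometric mean of 3 scaled values, without pseudocount, and a difference is that of 2 log2 levels. Genes with a mean fitted value of at least 10 were kept (10202), and a difference of at least 1.5-fold was counted.

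GENCODE vM21 on GRCm38, which places 16836 identifiers, gave positions, coding lengths and 3′UTRs. The transcript was the APPRIS principal one, with the longest 3′UTR on ties. Mmp14 was not analysed here.

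The 8 members and all lists were chosen with earlier results of these data known. Of the listed genes, 1 is not reported here and is left out of the list counts and figures. Named genes are the members, Zfp36, at most 3 other genes per list and comparison (those with the largest differences past 1.5-fold and a mean fitted value of at least 50), and the 3 genes nearest to the member with the widest range between conditions. Other genes are named with values chosen after these were seen, as marked. The steps were tested on simulated data with 200 changed genes without residual noise. Alternatives changed the filter, pseudocount, library scale, mean, fold, chromosome medians and replicates. Python 3.11.15, NumPy 2.4.6 and pandas 2.3.3 were used.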

Additional observations from a re-analysis of the deposited data

How the results depend on the processing

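The values are fitted, so leaving out replicate 1, 2 or 3 or taking the replicate number as a block changed no value: with the replicate block the median difference of the members was 0.23, 0.13 and -0.24, and 1, 1 and 2 members were past 1.5-fold (GFP-TTP against GFP, GFP-TTP-AA against GFP, GFP-TTP-AA against GFP-TTP). No paired analysis was possible because no test could be run. Over the alternatives, 4 of 213 values of single members moved by more than the SD of their replicate numbers, all of them those of Timp1 with a pseudocount. A change of sign was seen in 1 (Plau between GFP-TTP-AA and GFP, 0.01 with chromosome medians subtracted). Many of the 213 could not move. The replicate settings, the arithmetic mean and a change of the filter leave the value of a gene as it is. With a mean fitted value of at least 50 Timp1 was left out, and 0, 0 and 1 members were past 1.5-fold. The median between GFP-TTP-AA and GFP-TTP then was 0.0141, and it was 0.0133 without a filter, where Serpinb2 was included. That between GFP-TTP-AA and GFP was 0.0013 under both, beside 0.13. With a pseudocount of 1 or of 10, 0 members were past 1.5-fold between GFP-TTP-AA and GFP, and with a pseudocount of 10 181 kept genes instead of 285 were past it between GFP-TTP and GFP. With chromosome medians subtracted 1 member was past it between GFP-TTP-AA and GFP-TTP. With 2-fold as the limit, 1, 0 and 0 members and 57, 57 and 158 of the kept genes were past it. The low fitted values of Timp1 and Serpinb2 limit what can be said of them.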
